A study of Danio rerio with 12 samples.

Results

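A set of 58 accessible regions of the zebrafish genome was held by every embryo library at 80% epiboly and at 12 somites, and showed at most weak peaks at 24 hours post fertilization (hpf). They were chosen by measured values, the ranks of peaks in ATAC-seq, which sequences the DNA of accessible chromatin. In each of 12 peak lists the peaks on chromosomes 1 to 25 were ranked by the authors' −log10 p-value. The best 50000 peaks formed a top set and the best 100000 a wide set. The top sets of all lists were merged into 112288 regions. A region was kept if it overlapped the top set of all 8 libraries of the earlier stages and the wide set of none of the 4 libraries at 24 hpf, and 58 of the 112288 regions met this rule. Where the words closed or closing are used, they mean this loss of rank.

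All libraries came from whole zebrafish (Danio rerio) embryos without egg envelope and yolk. Each is labelled wild-type, although the protocol text shared by all samples also speaks of mutant embryos. There were 6 groups of 2 libraries each. Embryos exposed to 0.1 µM all-trans retinoic acid (atRA) and embryos exposed to the solvent DMSO were compared at each of the 3 stages. Exposure began at 30% epiboly for embryos taken at 80% epiboly, and at 80% epiboly for embryos taken at 12 somites or at 24 hpf. The labels do not say whether replicates came from separate clutches, so the spread between them may be technical.

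ATAC-seq reads DNA that a transposase can reach, which in an embryo is mostly promoters, enhancers and insulators. In zebrafish, many early enhancers are opened around genome activation by the maternal factors Pou5f3, Sox19b and Nanog, and enhancers of gastrulation are known to close as the germ layers give rise to tissues. Retinoic acid binds nuclear receptors that sit on DNA, and it patterns the hindbrain and trunk at these stages. In whole embryos, a site open in fewer cells and a site less open in each cell give the same loss of signal and cannot be told apart.

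The lists held 154354 to 439137 peaks on chromosomes 1 to 25 at 80% epiboly, 156361 to 272915 at 12 somites and 163454 to 232794 at 24 hpf. The lists give no fragment totals. The most frequent background pileup of a list, solved from the deposited fold and p-value of each peak, served as a measure of depth. It was 0.87 to 3.28 at 80% epiboly, 0.69 to 1.6 at 12 somites and 1.39 to 2.03 at 24 hpf, so the 24 hpf lists lay inside the range of the earlier ones in both length and depth. The shallowest early libraries were atRA replicate 2 at 80% epiboly and DMSO replicate 1 at 12 somites. Peak names in the 24 hpf DMSO lists carry an extra word that the others lack, and what it stands for is not given in the sources used here.

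Most early accessible regions persisted. Of the 20561 regions in the top set of all 8 early libraries, called common early regions below, 16955 (82.5%) were in the top set of all 4 libraries at 24 hpf and are called constitutive. Another 604 (2.94%) were in no top set at 24 hpf. Only 58 (0.282%) were in no wide set, which is what the rule asked for. The reverse pattern, regions in all 4 top sets at 24 hpf and in no wide set before, was held by 95 regions. The number of early regions that closed depends on where absence begins. With absence from the best 50000 peaks it was 604, and with absence from the whole list it was 11. Each 24 hpf library also weighed on it, since absence from fewer lists is easier to meet. Without atRA replicate 1 or 2 of that stage 87 or 83 regions met the rule. Without DMSO replicate 1 it was 87, and without DMSO replicate 2, the longest list of that stage, 104.

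The 58 regions were ordinary to weak members of the early landscape. Their median rank was 15504 and 21334 in the atRA libraries at 80% epiboly, and 25071.5 and 19020 in the DMSO libraries of that stage. At 12 somites the median rank was 23035.5 and 27249 in the atRA libraries, and 21496 and 23092.5 in the DMSO libraries. Between 5 and 16 of the 58 were among the best 10000 peaks of a list, with 16 in atRA replicate 1 at 80% epiboly and 5 in atRA replicate 2 at 12 somites. The worst rank of a region over the 8 early libraries ran between 15516 and 49839 with a median of 40489. It was over 40000 for 31 regions and up to 20000 for 4.

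Position was used to compare libraries of unequal depth. It is the percentile of a region among the 20561 common early regions of the same library, with 100 the strongest. The median position of the 58 regions was 39.6 and 23.6 with atRA and 19.3 and 32.0 with DMSO at 80% epiboly. At 12 somites it was 21.2 and 13.5 with atRA, and 24.9 and 18.9 with DMSO. All 8 medians were under the middle position of 50, and the lowest belonged to an atRA library at 12 somites.

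**Figure D1:**
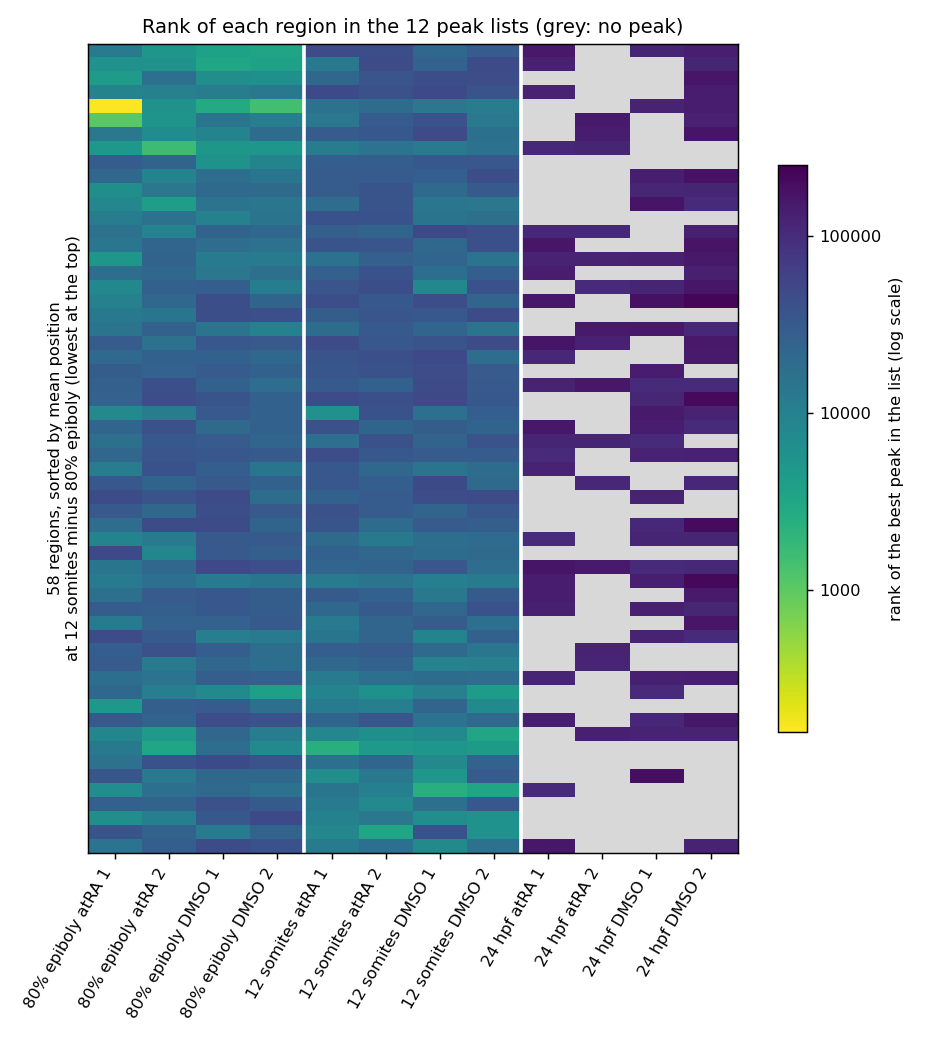
Rank of the best peak at each of the 58 regions (rows) in each of the 12 lists (columns), on a log colour scale, with grey where the list had no peak. Ranks at 80% epiboly and 12 somites ran between 165 and 49839, and the ranks found at 24 hpf ran between 100086 and 220747, the split that the rule made.

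The fold enrichment that the authors deposited gives the same regions on a scale the rule did not rank by first, although it comes from the same peaks, so it is a description. Over the 8 early libraries the folds ran between 5.36 and 22.2 with a median of 10.2. Median folds per library were 11.7 and 9.82 with atRA and 11.0 and 11.2 with DMSO at 80% epiboly, and 10.4 and 9.94 with atRA and 8.23 and 9.89 with DMSO at 12 somites. The 105 peaks found at 24 hpf had folds of 2.97 to 5.01 with a median of 3.97. At each region with a 24 hpf peak, every early fold was above every 24 hpf fold. Summit pileups, the number of fragments stacked on the highest base, were 10 to 132 in the early libraries and 7 to 16 at 24 hpf.

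What was left at 24 hpf differed from region to region. No peak was found in any 24 hpf list at 11 regions, while 10 had one in 1 list, 19 in 2 lists, 15 in 3 lists and 3 in all 4 lists. The atRA libraries held a peak at 25 (43.1%) and 15 (25.9%) of the regions, and the DMSO libraries at 28 (48.3%) and 37 (63.8%). A peak in any atRA list was found at 33 regions and in any DMSO list at 42. Both DMSO lists and neither atRA list held a peak at 8 regions, and both atRA lists and neither DMSO list at 1. The same counts over other common early regions are not given, so no treatment difference is read from these. The shortest list of the stage was atRA replicate 2 with 163454 peaks and the longest DMSO replicate 2 with 232794, and the part of list length in these counts was not tested.

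**Figure D2:**
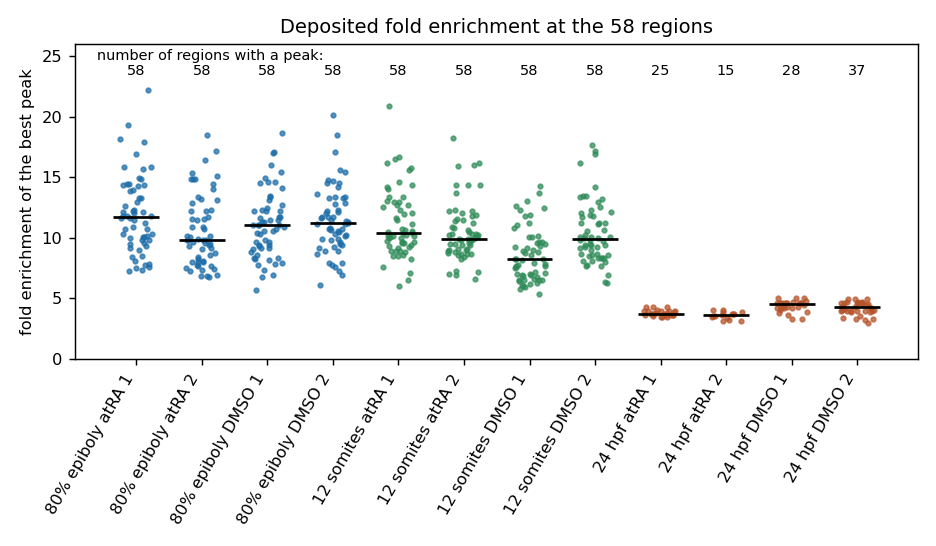
Fold enrichment deposited for the best peak at each of the 58 regions, by library, with points for regions and a bar at the median. All 58 regions had a peak in each of the 8 earlier libraries, with library medians of 8.23 to 11.7, while 15 to 37 of them had one at 24 hpf, with medians of 3.64 to 4.53.

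The 8 regions whose worst early rank was best are given one by one as a description, and differences between them were not tested. All coordinates are from GRCz10, the build in the submitters' processing notes. The region chr1:48695032-48695575 ranked 4916 and 1589 with atRA and 5111 and 5245 with DMSO at 80% epiboly. It ranked 11108 and 15303 with atRA and 12324 and 15516 with DMSO at 12 somites. At 24 hpf it had peaks in the atRA lists alone, at ranks 108562 and 116046 with folds of 3.84 and 3.64. It was the 1 region of the 58 with a peak in both atRA lists and neither DMSO list at 24 hpf. All 4 ranks at 12 somites were weaker than all 4 at 80% epiboly.

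The region chr19:16808352-16808968 was the strongest of the 58 in a single library. It ranked 165 and 5685 with atRA and 2807 and 1476 with DMSO at 80% epiboly, with folds of 22.2 and 15.4 with atRA and 18.7 and 20.1 with DMSO. At 12 somites its folds were 12.6 and 11.8 with atRA, and 9.59 and 11.7 with DMSO. At 24 hpf it had folds of 4.59 and 4.3 in the DMSO lists and no peak in the atRA lists. Its fold was thus lower at each later stage, and the folds of no 2 stages overlapped. No merged region lay within 10 kb of it and no common early region within 50 kb.

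The region chr13:44057139-44057508 took another course. Its folds were 14.8 and 18.5 with atRA and 14.1 and 15.6 with DMSO at 80% epiboly, and 20.9 and 18.2 with atRA and 13.7 and 17.7 with DMSO at 12 somites. It then had no peak in any 24 hpf list. Its position averaged 79.8 ± 5.6 at 12 somites and 58.6 ± 21.5 at 80% epiboly (SD over 4 libraries each), and the stages overlapped. Its positions at 12 somites were 88.0 and 77.2 with atRA and 75.6 and 78.6 with DMSO, so it was a strong region in each of these libraries and had no peak at the next stage. The nearest common early region was 304124 bp away.

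The other 5 of these 8 regions had a 24 hpf peak in 1 to 4 lists. At chr9:51978075-51978410 the ranks were 11638 and 17017 with atRA and 12065 and 14192 with DMSO at 80% epiboly, and 12275 and 14568 with atRA and 10387 and 12237 with DMSO at 12 somites. Its positions differed little between stages, with 47.5 ± 5.99 at 12 somites and 45.2 ± 8.61 at 80% epiboly (SD over 4 libraries each), and its 8 early summits lay within 13 bp. At chr5:45233515-45233943 all 4 lists at 24 hpf held a peak, with folds of 3.72 and 3.58 with atRA and 4.38 and 3.88 with DMSO. The regions chr7:73170229-73170593 and chr13:18933870-18934271 had mean positions of 67.1 and 70.7 at 12 somites, against 42.6 and 55.0 at 80% epiboly, and in both the stages overlapped. At chr9:54094481-54094773 a single 24 hpf peak, in DMSO replicate 1, ranked 100086 with a fold of 5.01, next to the limit of the rule.

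Of the 11 regions without a 24 hpf peak, chr13:44057139-44057508 had the best worst early rank. After chr13:44057139-44057508, the 4 with the best worst early rank were chr25:1304601-1304978, chr4:28541944-28542269, chr4:74697564-74697896 and chr21:6046207-6046511. The region chr25:1304601-1304978 had folds of 12.3 and 9.3 with atRA and 10.3 and 11.4 with DMSO at 80% epiboly, and 13.0 and 12.2 with atRA and 7.76 and 13.4 with DMSO at 12 somites. At chr4:74697564-74697896 the folds were 15.9 and 12.3 with atRA and 16.0 and 14.5 with DMSO at 80% epiboly, and 9.61 and 9.43 with atRA and 10.1 and 12.5 with DMSO at 12 somites. All 4 folds of this region at 12 somites were lower than or close to the lowest at 80% epiboly, with 12.5 in DMSO replicate 2 against 12.3 in the weakest 80% epiboly library. At chr21:6046207-6046511 the ranks at 12 somites were 8359 and 3199 with atRA and 39451 and 6015 with DMSO, so 1 DMSO library stood far from the other 3.

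The limit of the rule falls inside a continuous range. Just inside it, the best 24 hpf rank was 100086 at chr9:54094481-54094773, 100491 at chr11:33526146-33526542 and 101095 at chr15:40391825-40392312. Just outside it, the best 24 hpf rank was 98831 at chr5:45815901-45816278, 98734 at chr5:21961157-21961695 and 98067 at chr3:268365-268739. On the early side, chr19:39094180-39094513 missed a top set by a worst rank of 50027. A further 546 common early regions had their best 24 hpf rank past 50000 and up to 100000, and 91 regions closed at 24 hpf were in 7 of the 8 early top sets.

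The first comparison that the rule did not use is that of the earlier stages with each other: whether regions that were closed at 24 hpf had already lost position by 12 somites. In 13 of the 58 regions (22.4%) all 4 libraries at 12 somites lay below all 4 at 80% epiboly, where 9.74% of the common early regions did so. In 0 of the 58 regions did all 4 lie above, where 9.22% of the common early regions did. With 4 libraries against 4, a region without overlap gives the smallest p that the exact two-sided permutation test allows, 0.0286. Its Benjamini-Hochberg adjusted p over the 20561 regions was 0.151, so 0 regions passed 0.05 after adjustment and 3898 passed it before. The counts are therefore a description, with no region called by itself. Depth also differed between these stages. Background pileups were 2.47 and 0.87 with atRA and 3.18 and 3.28 with DMSO at 80% epiboly. At 12 somites they were 1.6 and 1.44 with atRA and 0.69 and 1.15 with DMSO. The part of depth in the stage counts was not tested.

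The mean position at 12 somites minus that at 80% epiboly had a median of −4.37 points over the 58 regions, against 0.813 points over all common early regions. It was negative in 34 of the 58, where it was in 9767 of all 20561 common early regions. Over the 58 it ran between −63.4 and 31.6 points. Among the 31 regions with a worst early rank over 40000, 9 (29.0%) were lower at 12 somites without overlap, where 11.6% of the other common early regions of that strength were. Among the 27 stronger regions 4 (14.8%) were, where 9.24% of the other common early regions of that strength were. The median difference was −8.93 points in the 31 weaker regions, beside 0.417 in the others of that strength. In the 27 stronger ones it was 2.34 points, beside 0.903. Strength here means the worst early rank, which is taken over both stages. A region that fell by 12 somites can thus become weaker through that fall. The 31 and the 27 regions are therefore not compared with each other. With the DMSO libraries alone, 2 against 2, 21 of the 58 regions (36.2%) were lower, where 30.6% of the common early regions were, and 12 (20.7%) were higher, where 32.6% were. Of the same 58 regions, 19 (32.8%) were lower without atRA replicate 2 at 80% epiboly, where 13.9% of the common early regions were. The count of 0 was 3 (5.17%) without either atRA library of 80% epiboly, where 12.7% (without replicate 1) and 15.5% (without replicate 2) of the common early regions were higher. It was 1 (1.72%) without either DMSO library or atRA replicate 2 of 12 somites, where 11.2% to 11.9% were.

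**Figure D3:**
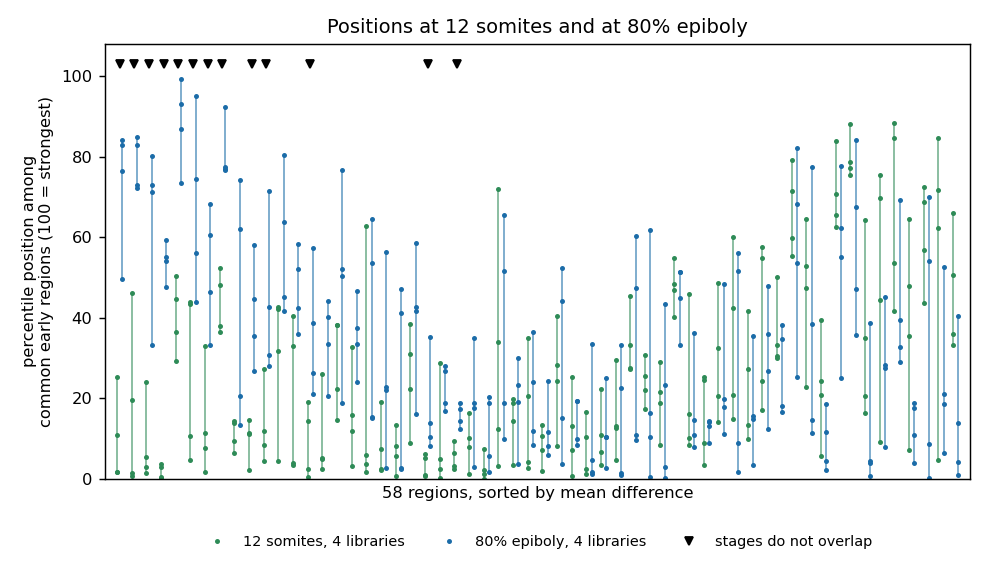
Positions of the 58 regions in the 4 libraries at 12 somites and the 4 at 80% epiboly, as percentiles among common early regions, with a line joining the lowest and highest of each stage and regions sorted by mean difference. Triangles mark the 13 regions in which all libraries at 12 somites lay below all at 80% epiboly, and no region had the reverse order.

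The 13 regions that were lower at 12 somites lay on 10 chromosomes, with differences of −63.4 to −10.4 points and a median of −38.6. The largest difference was at chr4:8763889-8764498, whose positions at 12 somites were 1.53 and 1.72 with atRA and 25.3 and 10.8 with DMSO. At 80% epiboly they were 49.7 and 76.4 with atRA and 82.8 and 84.2 with DMSO. The means were 9.84 ± 11.2 at 12 somites and 73.3 ± 16.1 at 80% epiboly (SD over 4 libraries each). It kept weak peaks in 3 lists at 24 hpf, with folds of 3.63 to 4.59.

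At chr7:40347591-40348222 the positions at 12 somites were 46.2 and 0.552 with atRA and 19.5 and 1.36 with DMSO. At 80% epiboly they were 72.2 and 73.0 with atRA and 84.8 and 82.9 with DMSO. The 4 libraries at 80% epiboly were close together, and those at 12 somites were widely spread but did not reach them.

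At chr1:29082138-29082600 the positions at 12 somites were 24.0 and 5.38 with atRA and 2.78 and 1.42 with DMSO. At 80% epiboly they were 80.1 and 33.2 with atRA and 71.3 and 72.9 with DMSO. The library nearest to those at 12 somites, at 33.2, was atRA replicate 2 at 80% epiboly, the shallowest of its stage. At chr14:51194654-51195063 the positions were 1.83 ± 1.77 at 12 somites and 54.0 ± 4.8 at 80% epiboly (SD over 4 libraries each). This region was near the bottom of the common early regions in every library at 12 somites and near the middle in every library at 80% epiboly.

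None of the 13 was among the 11 regions without a 24 hpf peak. Of these 11, 7 had a higher mean position at 12 somites than at 80% epiboly, with a median difference of 11.4 points over the 11. Of all 20561 common early regions 9767 had a lower mean, with a median difference of 0.813 points. The difference between the 11 and the rest was not tested, since they were set apart with the values in view. Among them, chr21:6046207-6046511 had a difference of 31.2 points, near the upper end of all 58 regions. Its positions at 12 somites were 62.4 and 84.7 with atRA and 4.55 and 71.8 with DMSO, which overlapped the 6.35 and 18.4 with atRA and the 52.7 and 21.0 with DMSO at 80% epiboly.

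The same comparison over all common early regions followed their presence at 24 hpf step by step. Of the 604 regions in no 24 hpf top set, 23.7% were lower at 12 somites than at 80% epiboly without overlap, and 1.49% were higher. With presence in 1, 2, 3 and 4 top sets the share that was lower was 19.5%, 19.0%, 16.8% and 7.77%. The share that was higher was 2.49%, 3.64%, 4.24% and 10.5%. The 58 regions, at 22.4% and 0%, were close to the 604 that contain them. Regions in all 4 top sets at 24 hpf were the only class in which more were higher than lower.

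The second comparison asks whether atRA shifted these regions before they closed. At 80% epiboly, both atRA libraries lay below both DMSO libraries in 10 of the 58 regions (17.2%), where 23.6% of common early regions did so. Both lay above in 18 (31.0%), where 24.2% of common early regions did. At 12 somites both atRA libraries lay below in 12 regions (20.7%), where 21.1% of common early regions did, and above in 7 (12.1%), where 20.2% did. With 2 libraries against 2 the smallest p of an exact permutation test is 0.33, so no region or count was called. Replicates were not equally close. An index of dispersion compared summit pileups of 2 libraries over the common early regions, and is larger where they differ more. It was 1.55 between the atRA libraries and 0.279 between the DMSO libraries at 80% epiboly. At 12 somites it was 0.472 with atRA and 0.623 with DMSO. All but the first of these values were lower than independent counts of fragments would give. The reason was not tested, so the values are read only against each other and not as a measure of good replication. The comparisons weigh all libraries alike, and the part of this unequal spread was not tested.

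The median difference, atRA minus DMSO, was 5.17 points at 80% epiboly over the 58 regions, against 0.192 over all common early regions. At 12 somites it was −3.39 points over the 58 regions, against −0.165 over all. The differences ran between −51.3 and 57.6 points at 80% epiboly and between −38.9 and 35.4 points at 12 somites. The direction at 80% epiboly was negative in 24 regions and at 12 somites in 34. Of the 20561 common early regions it was negative in 10144 and 10417. Both stages were lower with atRA in 2 regions (3.45%), where 3.4% of common early regions were, and higher in 3 (5.17%), where 3.77% were. The stages went in opposite directions in 5 regions (8.62%), where 13.1% of common early regions did. None of these shares was tested against that of the common early regions. Leaving out 1 library raised the counts at each stage in the 58 and in the common early regions, though by unequal amounts. Fewer libraries overlap less easily, and the cause of the unequal rises was not tested. Of the same 58 regions, 36 (62.1%) were higher with atRA at 80% epiboly without atRA replicate 2, where 40.9% of common early regions were, and 28 (48.3%) without DMSO replicate 2, where 33.8% were. Without atRA replicate 1 the share was 43.1%, where it was 41.6% of common early regions, and without DMSO replicate 1 it was 34.5%, where it was 33.3%. Without atRA replicate 1, 23 (39.7%) were lower with atRA at 80% epiboly, where 40.7% of common early regions were. The share lower was 22.4% without DMSO replicate 1, 20.7% without DMSO replicate 2 and 25.9% without atRA replicate 2. Of common early regions, 32.4% to 40.03% were lower in these settings. At 12 somites, leaving out DMSO replicate 1, DMSO replicate 2, atRA replicate 1 or atRA replicate 2 gave 41.4%, 41.4%, 37.9% and 29.3% lower with atRA, where 36.1%, 38.5%, 34.2% and 34.5% of common early regions were. In the same order 31.0%, 34.5%, 20.7% and 29.3% were higher, where 35.7%, 36.9%, 33.4% and 33.2% of common early regions were. Ranking by fold gave 51 regions, of which 11 (21.6%) were higher with atRA at 80% epiboly, where 25.6% of the common early regions were. With top sets of 20000 and wide sets of 40000 peaks, 24 of the 52 regions then found (46.2%) were lower with atRA at 12 somites, where 20.2% of 8191 common early regions were, and 1 (1.92%) was higher, where 20.1% were.

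**Figure D4:**
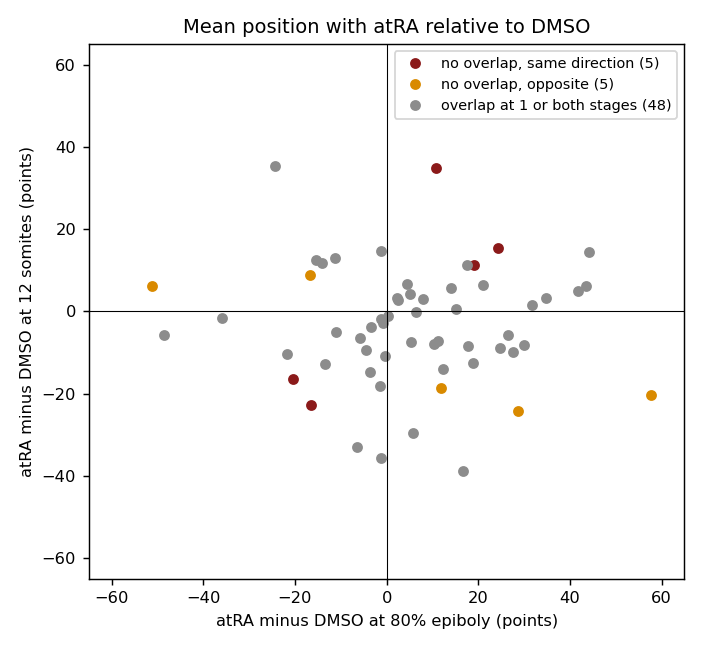
Mean position with atRA minus that with DMSO at 12 somites (vertical axis) against the same at 80% epiboly (horizontal axis), in percentile points, for the 58 regions. Colours mark the 5 regions in which the treatments did not overlap at either stage and moved in the same direction, and the 5 in which they moved in opposite directions.

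The 2 regions that were lower with atRA at both stages were chr4:8763889-8764498, given above, and chr11:40927514-40928006. The positions of chr11:40927514-40928006 at 80% epiboly were 14.7 and 3.33 with atRA and 15.5 and 35.4 with DMSO. At 12 somites they were 13.4 and 9.79 with atRA and 27.2 and 41.6 with DMSO. The separation at 80% epiboly was under 1 point between the nearest libraries.

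The 3 regions that were higher with atRA at both stages were chr19:13883623-13884144, chr1:26306185-26307106 and chr1:58387265-58387640. At chr19:13883623-13884144 the positions at 80% epiboly were 17.5 and 18.7 with atRA and 3.86 and 10.8 with DMSO, and at 12 somites 47.8 and 64.4 with atRA and 35.5 and 7.19 with DMSO. This region had no peak in any list at 24 hpf, with atRA or with DMSO. At chr1:26306185-26307106, the widest of the 58 at 922 bp, the positions at 80% epiboly were 38.6 and 57.3 with atRA and 21.0 and 26.2 with DMSO. At 12 somites they were 14.3 and 19.1 with atRA and 0.323 and 2.43 with DMSO. It was lower at 12 somites than at 80% epiboly under both treatments, and 3 of the 4 lists at 24 hpf, both atRA lists among them, held a peak. At chr1:58387265-58387640 the mean difference was 19.2 points at 80% epiboly and 11.3 points at 12 somites.

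A region picked after its values were seen, chr3:2303436-2303798, had the largest treatment difference at 80% epiboly. Its positions there were 69.96 and 54.1 with atRA and 8.68 and 0.134 with DMSO. At 12 somites they were 56.8 and 43.7 with atRA and 68.6 and 72.5 with DMSO, the opposite order, and it had no peak at 24 hpf.

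The treatment comparison at 12 somites also followed presence at 24 hpf over the common early regions. With presence in 0, 1, 2, 3 and 4 top sets at 24 hpf, 32.8%, 30.6%, 29.7%, 28.3% and 19.2% were lower with atRA at 12 somites. The share that was higher was 8.61%, 11.3%, 11.9%, 13.5% and 21.9%. At 80% epiboly the share that was lower was 19.2%, 20.2%, 17.7%, 19.7% and 24.6%, and the share that was higher was 30.1%, 26.5%, 24.8%, 24.6% and 23.9%. The 58 regions did not continue the series at 12 somites, with 20.7% lower and 12.1% higher with atRA. In the other 546 regions in no 24 hpf top set, 34.1% were lower and 8.24% higher at that stage. The shares of the 58 depended on set size. With top sets of 20000 and wide sets of 40000 peaks, 46.2% of the 52 regions then found were lower and 1.92% higher at 12 somites. Of the 8191 common early regions of that setting, 20.2% were lower and 20.1% higher. The atRA libraries at 12 somites were deeper than the DMSO libraries of that stage, with background pileups of 1.6 and 1.44 against 0.69 and 1.15. At 80% epiboly they were shallower, with 2.47 and 0.87 against 3.18 and 3.28. Depth thus moved with treatment at both stages, in opposite directions, and its part in these shares was not tested.

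**Figure D5:**
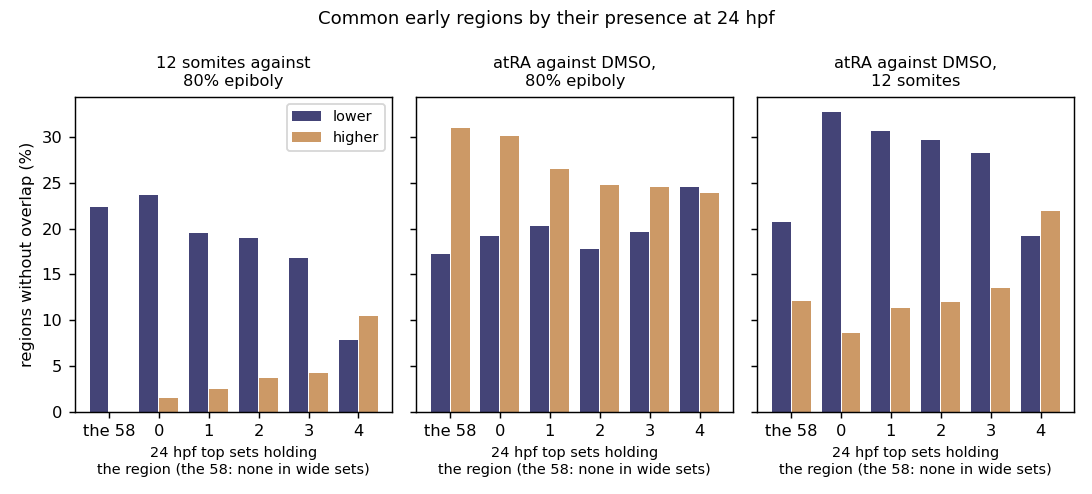
Share of regions in which groups did not overlap, lower or higher, for 12 somites against 80% epiboly, for atRA against DMSO at 80% epiboly and for atRA against DMSO at 12 somites. Bars are the 58 regions and then the common early regions by the number of 24 hpf top sets that held them, and the share lower at 12 somites was 22.4% in the 58 regions and 23.7%, 19.5%, 19.0%, 16.8% and 7.77% over the 5 classes.

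The rule did not ask for any shape or place of the regions, but it was not free of them. A region was dropped if a wide-set peak of the last stage overlapped it by at least 1 bp. A wider region can meet such a peak more easily, and width also depends on peak strength. The part of the rule in the widths, peak numbers and neighbours given below was not tested. The 58 regions were 238 to 922 bp wide with a median of 406 bp, against 473 bp in the other common early regions and 482 bp in constitutive ones. None was 1 kb or wider, where 2.46% of the other common early regions were. In 49 (84.5%) none of the 8 early lists had more than 1 peak, where this held for 76.3% of the others. The summits of the 8 early libraries spread over a median of 63.5 bp, against 63 bp in the others.

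A larger share of the 58 regions than of the others had no neighbour, a difference for which no test was run. No common early region lay within 50 kb of 18 of them (31.0%), where this held for 16.5% of the other common early regions. It held for 19.4% of the other 546 regions in no 24 hpf top set. With presence in 1, 2 and 3 top sets it held for 22.0%, 23.3% and 19.4%. No merged region of any kind lay within 10 kb of 20 of them (34.5%), where this held for 13.4% of the others. It held for 14.1% of the other 546 regions in no 24 hpf top set, and for 16.2% to 16.9% of those in 1 to 3 top sets. The share without a merged region within 10 kb was 29.0% among the 31 weaker regions, where it was 12.3% of the others of that strength, and 40.7% among the 27 stronger ones, where it was 13.7%. The median distance to the nearest common early region was 24256 bp, against 15768 bp. The background that the peak caller used at the summit was over 2 times that of the list in 11 of the 58 (19.0%), where it was in 41.2% of the others. It was in 28.6% of the other 546 regions in no 24 hpf top set and in 24.2% to 26.2% of those in 1 to 3 top sets, so most of the distance to 41.2% was shared by regions that were partly lost at 24 hpf.

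Regions nearby mostly remained open. The 58 regions had 106 common early regions within 50 kb, of which 78 (73.6%) were in all 4 top sets at 24 hpf, where 82.7% of all other common early regions were. Of the 106, 3 (2.83%) were in no 24 hpf top set, where 2.66% of the others were. Between 12 somites and 80% epiboly 15 of the 106 (14.2%) were lower and 10 (9.43%) higher at 12 somites. Of all common early regions 9.74% were lower and 9.22% higher. None of the 95 regions that opened by 24 hpf was within 100 kb of the 58, and 5 of the 58 had one within 1 Mb. The nearest pair was 105049 bp apart, at chr13:18933870-18934271. Both sets are small and the same count for other common early regions is not given, so no result about place is drawn.

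The 58 regions were spread over 21 of 25 chromosomes. Chromosome 4 held more than any other, with 6 among 462 common early regions, or 13.0 per 1000. Chromosome 11 followed with 5 among 798 (6.27 per 1000) and chromosome 13 with 4 among 799 (5.01 per 1000). Chromosomes 8, 10, 22 and 24 had none. Over all chromosomes the share was 0.282% of the common early regions, and differences between chromosomes were not tested. The long arm of zebrafish chromosome 4 is known for its repeats and late replication. How the authors treated reads that match several places is not given in the sources used here. Which of the chromosome 4 regions lie on that arm was not determined, and the part of repeats in their number was not tested. The 6 regions were chr4:8763889-8764498, chr4:15088680-15088988, chr4:28541944-28542269, chr4:68507096-68507530, chr4:73061680-73061917 and chr4:74697564-74697896. Of the 58, 6 (10.3%) lay within 1 Mb of the start of a chromosome's coordinates or of the last peak at its other end, where 5.96% of the others did.

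The 58 regions rarely sat together. The closest pair, chr21:6046207-6046511 and chr21:6098190-6098754, had a gap of 51678 bp and was the only one within 100 kb, and 4 neighbouring pairs were within 1 Mb. Neither region of that pair had a peak at 24 hpf. Before that, their mean positions were 55.9 and 23.9 at 12 somites, against 24.6 and 22.2 at 80% epiboly, and in both the stages overlapped.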

How the data were processed

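Peak lists from ATAC-seq of 12 whole-embryo libraries were used, with a separate list for each library rather than for pooled replicates. The submitters' processing notes name Bowtie2, SAMtools, MACS2 and the build GRCz10 (danRer10). Versions, settings and read shift are not given in the sources used here. For each peak the authors deposited a fold enrichment over the background of the same library, a −log10 p-value, a −log10 q-value and a score, which is the −log10 q-value times 10 as a whole number. These belong to the authors' peaks and were used to rank or describe peaks within a list. Fragment totals are unknown, so no intervals for counts are given. Fold and −log10 p-value were solved together for a whole-number summit pileup and a background, with 1 added to both pileups in the fold and p-values read from the upper tail of a Poisson distribution. A whole number within 0.001 was found for 100% of peaks.

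Peaks on chromosomes 1 to 25 were ranked by −log10 p-value, then fold, then position. Peaks and regions were matched by an overlap of at least 1 bp, and a region took the rank of its best peak. Groups came from the labels. Stages were compared with exact two-sided permutation tests over all 70 labelings of 8 libraries, with Benjamini-Hochberg adjustment over 20561 common early regions. Treatments, with 2 libraries each, were compared by lack of overlap. The calculations used Python 3.11.15, numpy 2.4.6, pandas 2.3.3 and scipy 1.17.1, figures used matplotlib 3.10.9, and the steps were tested on simulated data. Replicate numbers were not used to pair libraries in the main comparisons, and their use as a block is given under the dependence on processing.

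The regions and all lists were chosen with earlier results of these data known. The regions named were the 8 with the best worst early rank, the 5 such without a 24 hpf peak, and the 4 with the largest stage difference in each direction without overlap. To these were added the 3 with the largest treatment difference of the same direction at both stages, those nearest to the rank limit, and the pairs of regions within 100 kb. Alternatives were other set sizes, ranking by fold, looser and stricter absence, a 50% overlap, rank in the whole list, DMSO libraries alone, a replicate block, and leaving out libraries. Sequence, motifs and gene annotation of this build were not used here.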

Additional observations from a re-analysis of the deposited data

Results flagged for a closer look

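The 22 named regions gave 44 groups of 4 libraries that were checked for a library far from the rest. Chance gives such a library in about 1 in 20 groups, and the cases flagged, given here, were no more frequent than that. At chr1:48695032-48695575 atRA replicate 2 at 80% epiboly stood apart, with a position of 92.3, where the other 3 libraries of the stage lay between 76.6 and 77.4. It is the shallowest library of that stage. At chr1:58387265-58387640 atRA replicate 1 at 12 somites stood apart, with a position of 50.01, where the other 3 libraries lay between 30.1 and 33.3.

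The order of atRA and DMSO libraries was opposite at the earlier stages, without overlap between treatments at either, in 2 named regions. Of the 58 regions, 5 (8.62%) had such opposite orders, where 13.1% of common early regions did. The difference between stages was not tested. At chr4:28541944-28542269 atRA minus DMSO was −51.3 points at 80% epiboly and 6.2 points at 12 somites. Its positions at 80% epiboly were 13.3 and 20.4 with atRA and 74.2 and 62.1 with DMSO, and at 12 somites 14.2 and 13.8 with atRA and 9.38 and 6.27 with DMSO. At chr15:40391825-40392312 the difference was −16.7 points at 80% epiboly and 8.74 points at 12 somites.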

How the results depend on the processing

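An overlap of 50% left all 8 counts within 1.5 times, and ranks in the whole list left both stage counts so. With sets of 20000 and 40000 peaks, 1 of 52 regions had no 24 hpf peak, and with atRA at 12 somites 24 (46.2%) were lower and 1 (1.92%) higher, beside 20.2% and 20.1% of common early regions. Ranking by fold gave 51 regions, with 1 (1.96%) higher at 12 somites than at 80% epiboly, beside 7.28% of common early regions. With atRA, 11 (21.6%) were higher at 80% epiboly and 7 (13.7%) lower at 12 somites, beside 25.6% and 22.1%. Absence from the best 50000 peaks gave 604 regions. Of these, 143 (23.7%) were lower and 9 (1.49%) higher at 12 somites than at 80% epiboly, beside 9.74% and 9.22% of common early regions. With atRA at 80% epiboly, 116 (19.2%) were lower and 182 (30.1%) higher, beside 23.6% and 24.2%. With atRA at 12 somites, 198 (32.8%) were lower and 52 (8.61%) higher, beside 21.1% and 20.2%. Absence from the whole list gave 11 regions, with 0 lower at 12 somites than at 80% epiboly. With atRA, 2 (18.2%) were lower and 4 (36.4%) higher at 80% epiboly, and 3 (27.3%) lower and 2 (18.2%) higher at 12 somites. The shares of common early regions were the same as for the 604. DMSO libraries alone gave 21 of the 58 regions (36.2%) lower and 12 (20.7%) higher at 12 somites, beside 30.6% and 32.6% of common early regions. Chosen after seeing the data, leaving out the shallowest library of each early stage gave 20 lower and 4 higher, beside 16.9% and 19.0%, and judging absence in the 2 atRA lists or the 2 DMSO lists alone gave 230 or 145 regions.

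With the replicate block, 19 regions were lower and 1 higher at 12 somites, beside 16.6% and 16.9% of common early regions. Same-numbered libraries of the stages did not deviate together, with correlations of −0.000569 (atRA) and −0.0224 (DMSO). Whether atRA and DMSO libraries of the same number and stage belong together was not checked.

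Leaving out 1 library in turn gave 61 to 104 regions, the most without DMSO replicate 2 at 24 hpf, and 12 to 16 without a 24 hpf peak. Of the same 58 regions it gave 13 to 19 lower and 0 to 3 higher at 12 somites than at 80% epiboly. Of common early regions, 10.8% to 13.9% were then lower and 10.4% to 15.5% higher. With atRA it gave 12 to 23 lower and 20 to 36 higher at 80% epiboly, and 17 to 24 lower and 12 to 20 higher at 12 somites. Of common early regions, 32.4% to 40.7% were then lower and 33.3% to 41.6% higher with atRA at 80% epiboly. At 12 somites 34.2% to 38.5% of them were lower and 33.2% to 36.9% higher. With fewer libraries groups overlap less easily. The cause of the other shifts was not tested. Motif windows and distances to gene starts were not run, as no annotation of this build was used. Summit pileups of 7 to 16 at 24 hpf limit how finely weak peaks can be ranked.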
